A study of Mus musculus with 24 samples.

Results

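The last interval of a differentiation time course of C2C12 cells, from Day 4 to Day 5, was compared on 6 of the 24 arrays of the series, the 3 labelled Day 4 and the 3 labelled Day 5. C2C12 is an established line of mouse skeletal myoblasts. The cells were grown in high glucose DMEM with fetal bovine serum and penicillin/streptomycin, and were then held in medium whose serum was lowered to 2% v/v by the labels; the study's own text gives another percentage. Both groups had this medium, which was changed every 2 days, and in the labels the day of harvest is the only difference between them. The labels do not say on which days the medium was changed or how long before each harvest. The time since the last change may thus differ between the days, and it cannot be told apart from the day. Total RNA was hybridised to Affymetrix mouse arrays, and the 24 arrays cover 8 time points with 3 replicates each, from proliferating cells on Day -1 over confluent cells on Day 0 and cells 6 hours after induction to Day 5. The labels do not tell whether replicates of a day were grown as separate cultures. The p-values therefore refer to the spread of these arrays alone, and that spread may be technical.

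When serum is withdrawn, myoblasts leave the cell cycle, switch on the genes of the contractile apparatus and fuse into multinucleate myotubes, while some cells of the dish remain single. Immediate early genes such as Fos and Egr1 are transcribed within minutes of a stimulus without the need for new protein synthesis, and many of them encode transcription factors. Id proteins bind the E proteins that MyoD needs as partners, and so hold back myogenic differentiation. Matrix and secreted proteins are made largely by mesenchymal cells and by myoblasts, and form the surroundings in which myotubes attach.

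The 6 arrays did not fall cleanly into days. Day 5 replicate 3 was more like Day 4 replicate 1 (Pearson's r of 0.988 over the log2 intensities of 12098 probe sets) than like the other Day 5 arrays (r of 0.968 and 0.966). The remaining Day 5 arrays had an r of 0.983 with each other, and the Day 4 arrays had an r between 0.975 and 0.984 among themselves. Day 5 also had the largest spread of the 8 time points, with a median SD of 0.207 on the log2 scale, against 0.147 on Day 4 and 0.0967 on Day 0, where it was smallest. Some technical measures were alike on the 6 arrays. The trimmed mean intensity lay between 145 and 150, the share of probe sets at or above 100 was 25.4% to 26.5%, and the difference between the 3' and 5' probe sets for Gapdh lay between -0.48 and -0.36 on the log2 scale. The same difference for actin was 0.22, 0.28 and 0.18 on the Day 4 arrays and 0.33, 0.34 and 0.27 on the Day 5 arrays; Day 5 replicates 1 and 2 had the highest values of the 24 arrays and Day 4 replicate 3 the lowest, and the part of this measure in the results was not tested. Whether the labels of Day 4 replicate 1 and Day 5 replicate 3 are right was not tested either, and every difference between the days rests on them. For Fos, Egr1 and Id2, described below, Day 5 replicate 3 lay with the other Day 5 arrays and Day 4 replicate 1 below all of them. These genes were called for a difference between the labelled days, so their values cannot bear on whether the labels are right. Each result below is therefore given with the arrays that carry it, and every call was repeated without each of the 6 arrays in turn.

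**Figure D1:**
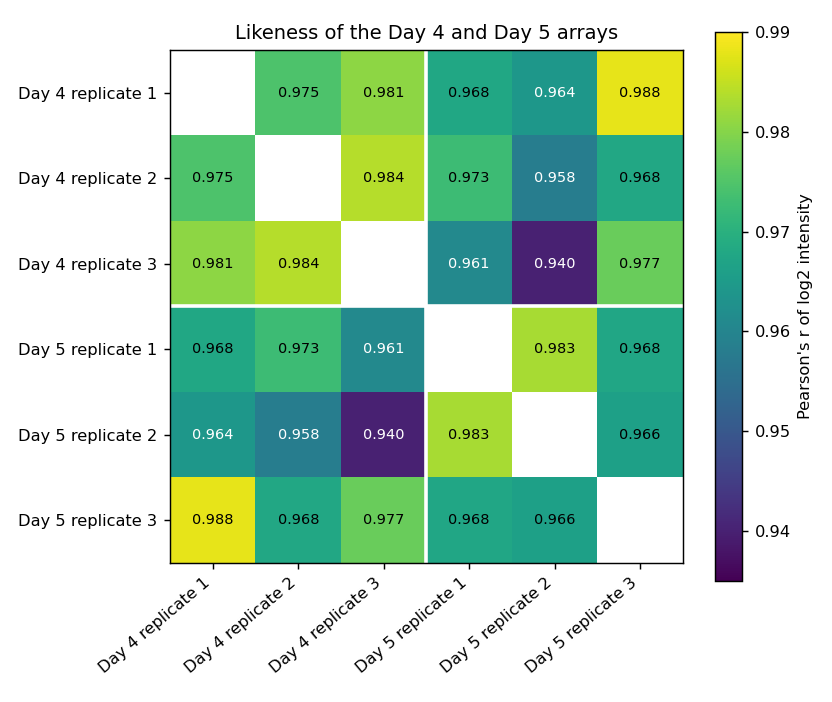
Pearson's r between the log2 intensities of each pair of the 3 Day 4 and 3 Day 5 arrays, over the 12098 probe sets tested; the white lines divide the days. The highest r, 0.988, joins Day 4 replicate 1 and Day 5 replicate 3, and the lowest, 0.940, joins Day 4 replicate 3 and Day 5 replicate 2.

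No probe set passed when the 6 arrays were compared on their own. Intensity here is the normalized brightness of a probe set on a linear scale, and 12098 probe sets with a mean intensity of at least 100 on either day were tested on log2 values with limma's moderated t. At an adjusted p under 0.05 (Benjamini-Hochberg), 0 of them were called (0%), although 541 were higher and 692 lower at an unadjusted p under 0.05, and the lowest adjusted p was 0.0515, shared by Egr1 and Fos. A fit to all 24 arrays, which estimates the spread of each probe set from 8 time points with 16 residual degrees of freedom in place of 4, called 190 probe sets higher on Day 5 (1.57%) and 235 lower (1.94%). That fit assumes that Day 5 varies like the earlier days, and its measured spread was larger. A fit to the 12 arrays of Day 2 to Day 5 called 19 higher and 13 lower. Of these 425 probe sets, 92 were at least 2-fold higher and 14 at least 2-fold lower. Counting without a model, 637 probe sets had all 3 Day 5 arrays above all 3 Day 4 arrays (5.27%) and 1169 had them all below (9.66%), and with 3 arrays a day the smallest p of an exact permutation test is 0.1.

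The calls depended on single arrays. All 425 probe sets kept their direction without any 1 array, but 67 kept the call in all 6 such fits. They were chosen for a difference on these same arrays, so a kept direction is largely built in. Without Day 5 replicate 2 the fit to 24 arrays called 90 probe sets in all, without Day 4 replicate 3 it called 125, and without Day 4 replicate 2 it called 152. In contrast, 856 were called without Day 5 replicate 3 and 662 without Day 4 replicate 1. Where a call named below was lost without single arrays, the value without 1 of them is given beside it, most often Day 5 replicate 2; many of these calls were also lost without Day 4 replicate 2 or 3. With 1 probe set for each gene, 112 of 7089 genes were higher on Day 5 (1.58%) and 149 lower (2.1%), and these are the genes described below as having risen or fallen; adjusted p-values and standard errors (SE) are those of the fit to 24 arrays. Over genes, the arrays lay apart upwards for 355 (5.01%) and downwards for 715 (10.1%). The call held in every fit without 1 array for 19 of the 112 and 22 of the 149. Of 76 called genes with several tested probe sets, 73 had all of them moving the same way, against 64.8% of all 2750 such genes. The called genes were chosen for a change on these same arrays, so more agreement among them is built in. This count therefore cannot bear on the calls.

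**Figure D2:**
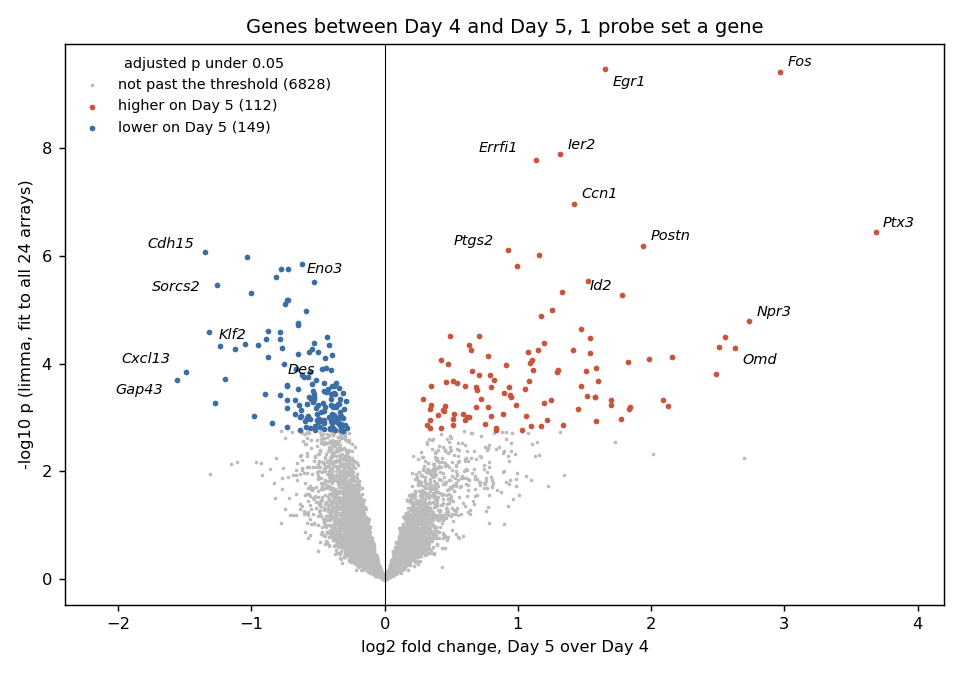
Log2 fold change from Day 4 to Day 5 (x axis, positive where Day 5 is higher) against -log10 of limma's unadjusted p in the fit to 24 arrays (y axis), 1 point per gene; coloured points passed an adjusted p of 0.05. Fos and Egr1 lie at the top, and Ptx3 has the largest rise, 3.68 on the log2 scale.

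Fos and Egr1, which are immediate early genes, had the lowest adjusted p of all genes. Of 26 measured members of a list of such genes, 6 rose (Fos, Egr1, Ier2, Junb, Ier3 and Dusp6) and 1 fell (Klf2), against 1.58% and 2.1% of all genes. For 8 members all Day 5 arrays lay above all Day 4 arrays, against 5.01% of all genes. The median log2 fold change of the list was 0.19, against -0.04 for all genes, of which 3079 were higher and 4010 lower on Day 5. Fos (Entrez ID 14281), a subunit of the transcription factor AP-1, had an intensity of 29.5, 13.6 and 20.3 on the Day 4 arrays 1 to 3 and of 118, 187 and 178 on the Day 5 arrays 1 to 3. All Day 5 values thus lay far above the highest Day 4 value, Day 5 replicate 3 included. The log2 fold change was 2.97 (SE 0.26, adjusted p = 2.33e-06), and it lay between 2.69 and 3.24 without each array. Egr1 (Entrez ID 13653), a zinc finger factor induced by serum, gave 1095, 827 and 942 on Day 4 and 2531, 3336 and 3167 on Day 5. Its arrays lay far apart as well, with a log2 fold change of 1.66 (SE 0.14, adjusted p = 2.33e-06). For Ier2 (Entrez ID 15936), a small nuclear protein of the same class, the values were 684, 529 and 529 against 1132, 1755 and 1492, a log2 fold change of 1.32 (SE 0.14, adjusted p = 5.01e-05). The calls of Fos, Egr1 and Ier2 held without each array, at an adjusted p of at most 0.000985.

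The smaller changes of the list were less secure. Junb, a partner of Fos in AP-1, rose by 0.64 on the log2 scale (adjusted p = 0.00792; 585, 400 and 435 against 701, 825 and 673), and Ier3 by 0.61 (adjusted p = 0.0364), with all Day 5 arrays above all Day 4 arrays in both. Dusp6, a phosphatase that acts on ERK, rose by 0.35 (adjusted p = 0.0278). Without Day 5 replicate 2 none of these 3 passed, with adjusted p-values of 0.0676, 0.155 and 0.132. Each also failed without Day 4 replicate 3, where the adjusted p was 0.0501 for Junb, 0.205 for Ier3 and 0.0694 for Dusp6. Klf2, a Krüppel-like factor, went the other way, from 265, 381 and 358 to 149, 152 and 251, a log2 fold change of -0.89 (SE 0.17, adjusted p = 0.0064, and 0.053 without Day 5 replicate 2). Klf4 did not pass, with 1690, 1677 and 2281 on Day 4 and 870, 1161 and 2038 on Day 5, where Day 5 replicate 3 lay within the Day 4 values. Jun and Myc did not pass either, with log2 fold changes of 0.11 and 0.32. The range of the number of list members called without each array was 3 to 8 higher and 0 to 1 lower. Over all probe sets, 12032 to 12261 in these fits, it was 38 to 469 higher and 52 to 387 lower.

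Errfi1, Ptgs2, Ccn1 and Rnd3 rose from Day 4 to Day 5 whichever array was left out. Errfi1 (Entrez ID 74155), an inhibitor of the EGF receptor, had 662, 702 and 586 on Day 4 and 1310, 1650 and 1337 on Day 5, so the days lay well apart. Its log2 fold change was 1.14 (SE 0.12, adjusted p = 5.01e-05). Ptgs2 (Entrez ID 19225), the inducible cyclooxygenase of prostaglandin synthesis, had 742, 843 and 781 against 1631, 1465 and 1406, with little spread within either day and a log2 fold change of 0.93 (SE 0.13, adjusted p = 0.000849). Ccn1 (Entrez ID 16007), a secreted matrix protein also known as Cyr61, had 2000, 1157 and 1075 against 3123, 4435 and 3462, with Day 4 replicate 1 between the other Day 4 arrays and Day 5. The log2 fold change was 1.42 (SE 0.18, adjusted p = 0.000247). Rnd3, a regulator of the actin cytoskeleton, rose by 1.33 (SE 0.21, adjusted p = 0.00192). Socs3, the feedback inhibitor of cytokine signalling, rose by 0.79 (adjusted p = 0.0142) but did not pass without Day 5 replicate 2 (adjusted p = 0.101) or Day 4 replicate 3 (0.0885).

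**Figure D3:**
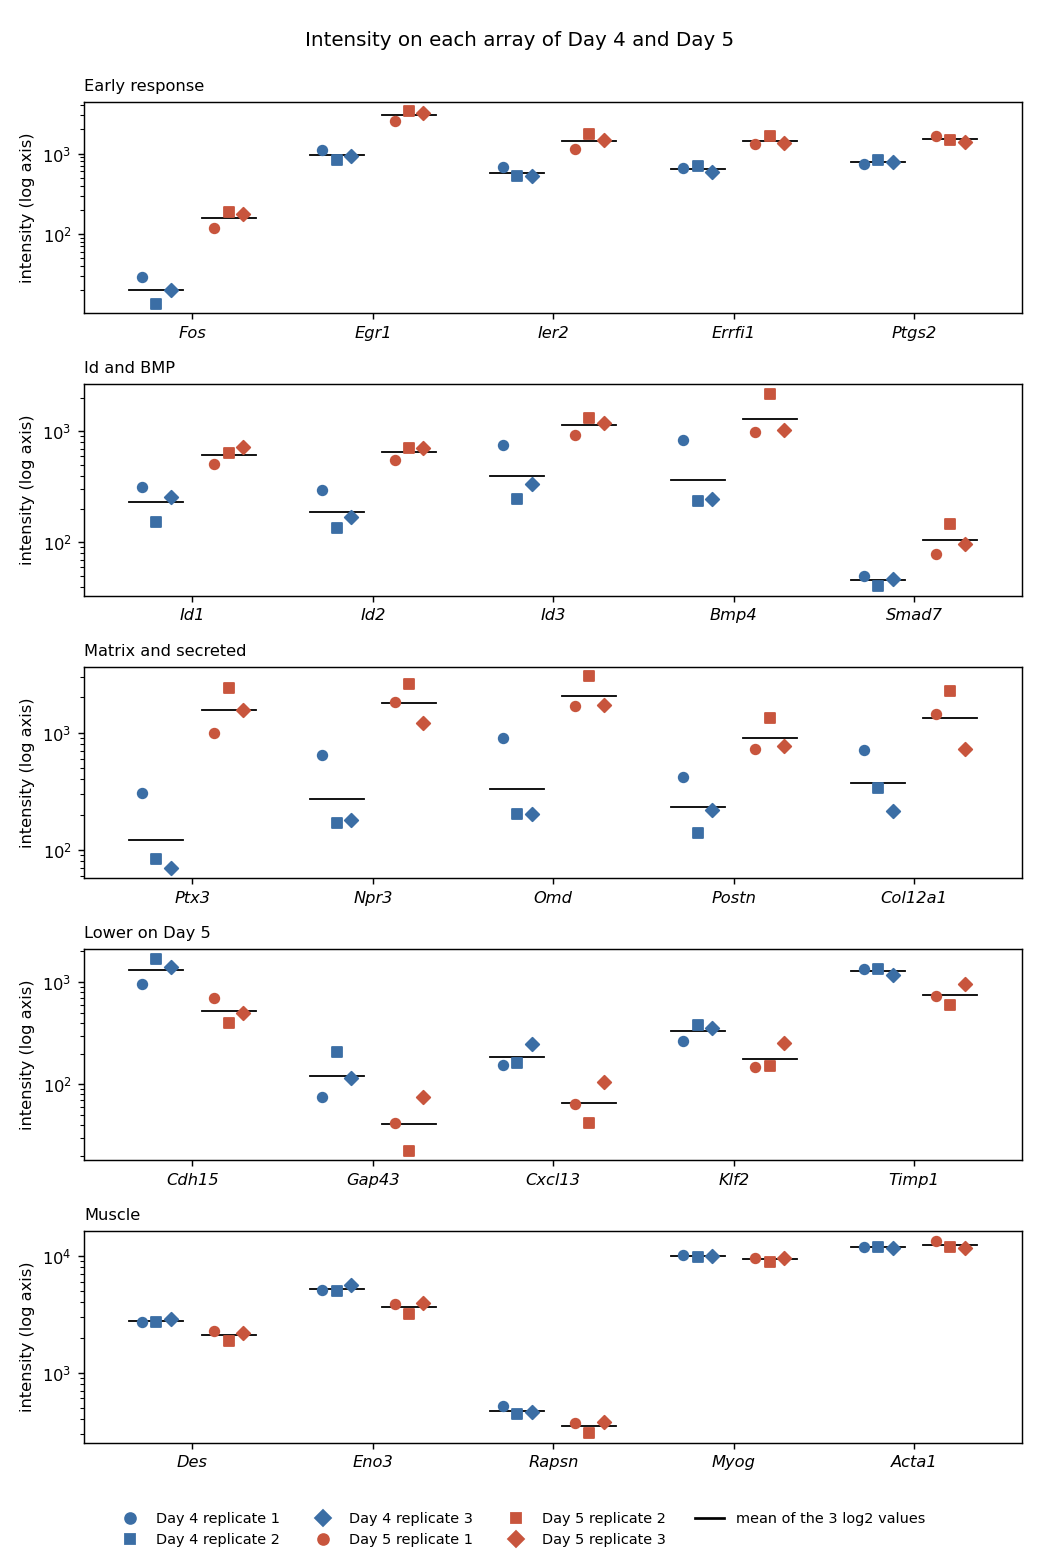
Intensity of 25 genes on each Day 4 array (blue) and Day 5 array (red), on log axes; circles, squares and diamonds are replicates 1, 2 and 3, and black bars are means of the 3 log2 values. In the top row the days are apart with little spread, while in the third row Day 4 replicate 1 lies between the other Day 4 arrays and Day 5, as for Omd at 907 against 202 and 202.

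Several of these genes had also been higher on Day 3 than on Day 4. Fos had a mean intensity of 89.9 ± 17.4 (SD, n = 3) on Day 3, 21.1 ± 7.98 on Day 4 and 161 ± 37.3 on Day 5. Egr1 had 2595 ± 84.2, 955 ± 134 and 3011 ± 425 on the same days, and Errfi1 1508 ± 105, 650 ± 58.4 and 1433 ± 189. From Day 3 to Day 4, in the same fit, 5 of the early response genes described above fell. The log2 fold changes were -2.14 for Fos (adjusted p = 0.000327), -1.45 for Egr1 (adjusted p = 3.33e-05), -1.22 for Errfi1 (adjusted p = 3.33e-05), -0.86 for Ier2 (adjusted p = 0.00631) and -0.54 for Dusp6 (adjusted p = 0.00442). The median over all genes was -0.04. Genes of other kinds fell in that interval too, such as D17H6S56E-5 (-1.22, adjusted p = 0.0185) and Dnajb1 (-0.37, adjusted p = 0.0271). Junb and Ier3 did not pass in that interval, at -0.17 and -0.34 (adjusted p = 0.478 and 0.297), nor did Ccn1, Rnd3 and Socs3, at -0.45, -0.45 and -0.43. Day 5 against Day 3 gave 0.83 for Fos (adjusted p = 0.0327), 0.46 for Ier2 (adjusted p = 0.0302), 0.21 for Egr1 (adjusted p = 0.361) and -0.08 for Errfi1 (adjusted p = 0.715). These comparisons share the Day 4 or the Day 5 arrays with the main one and are not independent of it. Ptgs2 followed another course, with 681 ± 50.1 on Day 3, 788 ± 51.3 on Day 4 and 1501 ± 117 on Day 5.

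Inhibitors of myogenic differentiation rose. Of 15 such genes on the list 5 were measured, and 4 of them rose with all Day 5 arrays above all Day 4 arrays, Id1, Id2, Id3 and Snai2, for a median log2 fold change of 1.41. Over all genes 1.58% rose, and the arrays lay apart upwards for 5.01%. Id2 (Entrez ID 15902) had 297, 135 and 171 on Day 4 and 556, 713 and 702 on Day 5. The days lay well apart, and the log2 fold change of 1.78 (SE 0.29, adjusted p = 0.00206) passed without each array. Id1 (Entrez ID 15901) had 317, 153 and 256 against 504, 638 and 726, a log2 fold change of 1.41 (SE 0.28, adjusted p = 0.00792, and 0.0523 without Day 4 replicate 2). Id3 (Entrez ID 15903) had 751, 247 and 339 against 925, 1328 and 1200, with Day 4 replicate 1 close to Day 5 replicate 1, and a log2 fold change of 1.52 (SE 0.36, adjusted p = 0.0231, and 0.121 without Day 4 replicate 2). Snai2, a zinc finger repressor, rose by 0.51 (adjusted p = 0.016, and 0.116 without Day 5 replicate 2), and Zeb1 did not pass, at -0.07 (adjusted p = 0.663).

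Bmp4, Smad7, Jag1 and Notch1, of signalling pathways, were chosen after their values were seen. Bmp4, a ligand of the BMP pathway, to which Id genes are known to respond, had 832, 235 and 244 on Day 4 and 986, 2182 and 1027 on Day 5, and rose by 1.84 on the log2 scale (SE 0.45, adjusted p = 0.0284). Day 4 replicate 1 stood near the lower Day 5 arrays, and the call survived neither leaving out Day 5 replicate 2, with an adjusted p of 0.189, nor leaving out Day 4 replicate 2 (0.13) or replicate 3 (0.155). Smad7, an inhibitor of BMP and TGF-beta signalling, rose from 49.8, 40.4 and 46.9 to 79.3, 147 and 97.4, a 2.29-fold rise (SE 0.23 on the log2 scale, adjusted p = 0.00726). Without Day 5 replicate 2, in a fit to the same probe sets, its adjusted p was 0.0607. Smad7 reached the level of 100 needed for the test through Day 5 alone. Jag1, a ligand of Notch receptors, rose by 1.52 (SE 0.24, adjusted p = 0.00137) and held without each array, whereas Notch1 itself fell by 0.45 (adjusted p = 0.00958, and 0.0685 without Day 5 replicate 2).

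Of the 10 largest rises among called genes whose arrays do not overlap, that of Fos was described above, and the other 9 genes encode secreted, matrix or membrane proteins. Ptx3 (Entrez ID 19288), a secreted pattern recognition protein, had 305, 83.7 and 69.7 on Day 4 and 1002, 2419 and 1556 on Day 5, the largest rise of all called genes whose arrays do not overlap, with a log2 fold change of 3.68 (SE 0.49, adjusted p = 0.000547). Every Day 5 array lay above 3 times the highest Day 4 array. Npr3 (Entrez ID 18162), the clearance receptor for natriuretic peptides, had 644, 168 and 180 against 1835, 2584 and 1217 (log2 fold change 2.74, SE 0.48, adjusted p = 0.00418). Omd (Entrez ID 27047), osteomodulin, a small leucine-rich proteoglycan, had 907, 202 and 202 against 1698, 3028 and 1705 (log2 fold change 2.63, SE 0.51, adjusted p = 0.00766). In both genes Day 4 replicate 1 lay more than 3 times above the other Day 4 arrays, though still below all Day 5 arrays. The call of Npr3 held without each array, while that of Omd was lost without Day 5 replicate 2 (adjusted p = 0.0617) or Day 4 replicate 3 (0.0565).

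The remaining genes of the 10 largest rises had the same layout of arrays. Dkk2, a modulator of Wnt signalling, had 264, 56.7 and 44.5 on Day 4 and 428, 1000 and 317 on Day 5, so Day 4 replicate 1 and Day 5 replicate 3 were close. It rose by 2.56 on the log2 scale (adjusted p = 0.00629, and 0.053 without Day 5 replicate 2). Gas6, a ligand of the receptor Axl, rose by 2.51 (adjusted p = 0.00756), the proteoglycan Prelp by 2.16 (adjusted p = 0.00925), the lipid carrier Apoe by 2.13 (adjusted p = 0.0283) and the peptidase Enpep by 1.98 (adjusted p = 0.00958). In this order their Day 4 means were 55.1, 65.5, 44.0 and 78.1. Like Fos, with a Day 4 mean of 21.1, they reached the level of 100 needed for the test through Day 5 alone. For Apoe the highest Day 4 array and the lowest Day 5 array were 99.9 and 100.4. None of these 4 passed without Day 5 replicate 2, where the adjusted p lay between 0.0597 for Gas6 and 0.154 for Apoe. Postn (Entrez ID 50706), periostin, a matrix protein of connective tissue, had 418, 139 and 221 against 719, 1326 and 763. Its log2 fold change of 1.94 (SE 0.27, adjusted p = 0.000849) passed without each array, at 0.00607 or below.

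Few collagens and other matrix genes were called, and most were higher on Day 5. Of 35 measured members of a list of collagens and extracellular matrix, 30 were higher on Day 5, 7 rose and none fell. Over all 7089 genes, 3079 were higher on Day 5, 1.58% rose and 2.1% fell. The median was 0.29 on the log2 scale, against -0.04 for all genes. The 7 were Postn, Col12a1, Ccn1, Ccn2, Col8a1, Lox and Thbs1. All Day 5 arrays lay above all Day 4 arrays for 4 members, against 5.01% of all genes, and the medians of the list by array overlapped between the days. Col12a1, a fibril-associated collagen, had 717, 334 and 215 against 1434, 2251 and 728, so Day 5 replicate 3 barely exceeded Day 4 replicate 1; it rose by 1.84 (SE 0.46, adjusted p = 0.0294, and 0.197 without Day 5 replicate 2). Lox, the enzyme that cross-links collagen, rose by 0.82 (adjusted p = 0.0159, and 0.113 without Day 5 replicate 2) with overlapping arrays. The matrix genes Col8a1, Ccn2 and Thbs1 rose by 0.94, 0.95 and 0.84, also with overlapping arrays, and failed without Day 5 replicate 2 at adjusted p-values of 0.159, 0.117 and 0.272. The number of called members was 2 in each fit without Day 4 replicate 2, Day 4 replicate 3 and Day 5 replicate 2 in turn, 3 without Day 5 replicate 1, 10 without Day 5 replicate 3 and 11 without Day 4 replicate 1. In the same order, these fits called 80 of 12077, 47 of 12124, 38 of 12032, 143 of 12064, 469 of 12261 and 313 of 12114 probe sets higher. Lum and Lama2 did not pass, at log2 fold changes of -0.20 and -0.29.

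**Figure D4:**
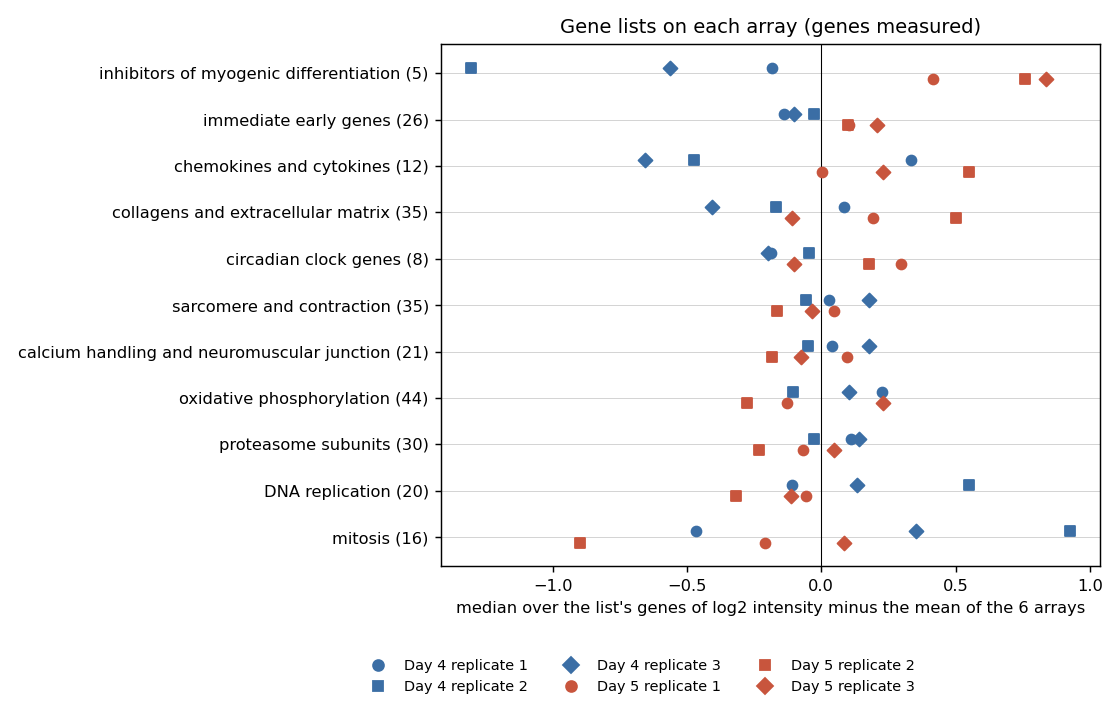
Median over the measured genes of each list of the log2 intensity minus the mean of the 6 arrays (x axis), for each Day 4 array (blue) and Day 5 array (red); circles, squares and diamonds are replicates 1, 2 and 3. For the inhibitors of myogenic differentiation all Day 5 arrays (0.42 to 0.83) lie above all Day 4 arrays (-1.30 to -0.18), whereas for the matrix list Day 4 replicate 1 at 0.08 lies above Day 5 replicate 3 at -0.11.

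The same arrays shaped the contrast among the 112 genes that rose. Setting the mean of Day 4 replicates 2 and 3 to 0 and that of Day 5 replicates 1 and 2 to 1 on the log2 scale, Day 4 replicate 1 had a median position of 0.496 over these genes and Day 5 replicate 3 one of 0.719. For the 7 matrix genes the positions were 0.517 and 0.632. For the 6 immediate early genes they were 0.263 and 1.07, and for the 4 inhibitors of myogenic differentiation 0.460 and 1.07. Thus Day 5 replicate 3 had full Day 5 levels of Fos, Egr1 and the Id genes, and lay between the days for matrix genes. These positions describe genes chosen for their difference between the days and carry no test.

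Genes for growth factors and cytokines were among those that rose. Of 12 measured chemokines, cytokines and related genes, 3 rose (Ptgs2, Csf1 and Nfkbiz) and none fell, against 1.58% and 2.1% of all genes. The list had a median of 0.55 on the log2 scale. It does not hold the chemokine Cxcl13, which fell, with a log2 fold change of -1.49 (adjusted p = 0.0129). Csf1, the growth factor of macrophages, had 1410, 925 and 690 on Day 4 and 1949, 2854 and 1848 on Day 5, a log2 fold change of 1.17 (SE 0.20, adjusted p = 0.00345) that passed without each array. Nfkbiz, a nuclear regulator of NF-kappaB, had 150, 191 and 201 against 271, 344 and 271 and rose by 0.71 (adjusted p = 0.00601, and 0.0522 without Day 5 replicate 2), while Tnfaip3, another target of that factor, did not pass at -0.32. Hgf, a ligand of the receptor Met that acts on satellite cells, had 425, 176 and 123 against 607, 996 and 403; it rose by 1.58 (adjusted p = 0.0236), but Day 5 replicate 3 lay below Day 4 replicate 1. Igf1, a growth factor of muscle, had 419, 181 and 172 against 592, 843 and 394 and rose by 1.30 (adjusted p = 0.0126) with the same overlap. Angiogenic factors rose too, Pgf by 1.70 (adjusted p = 0.0277), Vegfc by 1.06 (adjusted p = 0.0195) and Angpt1 by 0.98 (adjusted p = 0.0278). Ereg, a ligand of the EGF receptor, rose by 1.22 (adjusted p = 0.039), Kitl by 0.89 (adjusted p = 0.0218), and the complement proteases C1s1 and C1ra by 1.45 and 1.18. Apart from Csf1 and Ptgs2, each of these calls was lost without 1 or more arrays. Nfkbiz apart, all were lost without Day 4 replicate 3 (adjusted p of 0.14 for Pgf, 0.125 for Vegfc, 0.174 for Angpt1, 0.23 for Ereg, 0.137 for Kitl, 0.161 for C1s1, 0.247 for C1ra, 0.147 for Hgf and 0.0885 for Igf1). Hgf, Igf1, Pgf, Vegfc, Angpt1, Ereg, Kitl, C1s1 and C1ra were chosen after their values were seen.

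Several promoters of the genes that rose held a TATA sequence near the start of transcription. The letters TATAAA, searched on the strand of the gene from 40 to 20 bases before the start in RefSeq promoter windows (GRCm38.p6), were found for 11 of the 90 risen genes with a window (12.2%), for 0 of 110 fallen genes, for 78 of 5827 genes tested (1.34%) and for 650 of all 27025 genes with a window (2.41%). The 11 were Fos, Errfi1, Ccn1, Rnd3, Postn, Dkk2, Adamts1, Cebpa, Kitl, Sgk1 and Fam118a. The calls of Sgk1 (0.45 on the log2 scale, adjusted p = 0.0283) and Fam118a (0.44, adjusted p = 0.0309) were lost without Day 4 replicate 3, at adjusted p-values of 0.131 and 0.171. Searched on both strands of the whole window, from 250 bases before to 50 after the start, TATAAA was in 27 of the 90 risen genes, 8 of the 110 fallen genes and 8.63% of the tested genes, and in 15.7% of all windows. The CArG box, the element bound by SRF, was in 2 of 90 risen genes (2.22%) and 3 of 110 fallen genes (2.73%). It was in 1.73% of the tested genes and in 1.81% of all windows. Of the 26 tested immediate early genes 19 had a window, and 2 of these 19 held the CArG box. Of the 6 immediate early genes that rose 4 had a window, and 0 of these 4 held it. Egr1, Ier2 and Id1 had no window and were not searched for either motif. No match says only that these letters are absent from the window. Both motifs were chosen after the values were seen, and a match describes the sequence and not a site in use. The 60 bases before the start are shown for 7 of the 11 genes, 5′ to 3′ on the strand of the gene, to show where the motif (in capitals) lies in genes of the early response, the matrix and signalling.
Fos, chr12:85473830-85473889, plus strand: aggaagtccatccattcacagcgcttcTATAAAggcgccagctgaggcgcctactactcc
Errfi1, chr4:150855010-150855069, plus strand: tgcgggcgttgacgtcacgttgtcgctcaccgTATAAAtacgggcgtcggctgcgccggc
Ccn1, chr3:145649986-145650045, minus strand: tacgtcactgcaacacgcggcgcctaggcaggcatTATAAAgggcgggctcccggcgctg
Rnd3, chr2:51149112-51149171, minus strand: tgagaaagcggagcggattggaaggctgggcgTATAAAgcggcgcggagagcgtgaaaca
Postn, chr3:54361047-54361106, plus strand: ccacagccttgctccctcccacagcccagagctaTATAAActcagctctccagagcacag
Dkk2, chr3:132085232-132085291, plus strand: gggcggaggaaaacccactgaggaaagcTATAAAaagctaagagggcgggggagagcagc
Adamts1, chr16:85803114-85803173, minus strand: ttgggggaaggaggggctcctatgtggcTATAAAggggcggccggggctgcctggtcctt
The motif began 33 bases before the start in Fos, 25 in Ccn1, 26 in Postn, 28 in Errfi1 and Rnd3 and 32 in Dkk2 and Adamts1.

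Falls were smaller than rises. Among called genes whose arrays do not overlap, the largest was that of Gap43 (Entrez ID 14432), a protein of growing nerve endings that is also made by myoblasts, with 74.6, 209 and 115 on Day 4 and 42, 22.4 and 74.5 on Day 5. Day 4 replicate 1 and Day 5 replicate 3 were all but equal, and the log2 fold change was -1.56 (SE 0.34, adjusted p = 0.0156, and 0.114 without Day 5 replicate 2). Cxcl13, a chemokine of B cells, had 155, 162 and 248 against 64.3, 41.7 and 105, a log2 fold change of -1.49 (SE 0.32, adjusted p = 0.0129, and 0.1 without Day 5 replicate 2). Cdh15 (Entrez ID 12555), M-cadherin, which joins myoblasts and satellite cells to muscle fibres, had 957, 1703 and 1395 against 701, 397 and 497. It was lower on every Day 5 array than on any Day 4 array, at a log2 fold change of -1.35 (SE 0.19, adjusted p = 0.000849). Sorcs2, a receptor of the sortilin family, had 400, 785 and 582 against 246, 208 and 260, with the Day 5 arrays close together (log2 fold change -1.26, SE 0.20, adjusted p = 0.00152). The calls of Cdh15, Sorcs2, D17H6S56E-5 (-1.32, adjusted p = 0.00541) and Efhd1 (-1.03, adjusted p = 0.000885) held without each array.

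The other genes of the 10 largest falls were Slc2a6, a hexose transporter, Ablim3, an actin-binding protein, Tppp3, a microtubule-associated protein, and Bcam, a receptor for laminin. They fell by between 1.04 (Bcam) and 1.24 (Slc2a6) on the log2 scale, with adjusted p-values between 0.00735 and 0.0156. Without Day 5 replicate 2 none of the 4 passed, at adjusted p-values between 0.057 and 0.0992. Among the 10 largest falls, Gap43, Cxcl13, D17H6S56E-5, Slc2a6, Ablim3 and Bcam reached the level of 100 needed for the test through Day 4 alone. In this order their Day 5 means were 46.3, 70.4, 38.4, 63.2, 91.4 and 52.0. Timp1 (Entrez ID 21857), an inhibitor of matrix proteases, had 1355, 1338 and 1167 on Day 4 and 725, 599 and 955 on Day 5, and fell by 0.78 on the log2 scale (SE 0.15, adjusted p = 0.00638, and 0.053 without Day 5 replicate 2). Of 12 measured matrix proteases and inhibitors, Timp1 was the only one that fell and Adamts1 the only one that rose (1.03, adjusted p = 0.0497, and 0.284 without Day 5 replicate 2). Over all genes 2.1% fell and 1.58% rose. Timp3 did not pass, at 0.91 (adjusted p = 0.0511). The proteases Adamts7 (-0.95, adjusted p = 0.00735) and Pappa2 (1.54, adjusted p = 0.00638) are not on the list. Their calls held without each array, and they were chosen after their values were seen. Bbc3, Bok and Bid, which promote apoptosis, fell, with log2 fold changes of -0.89, -0.76 and -0.37 (adjusted p = 0.0221, 0.0107 and 0.0172), each with all Day 5 arrays below all Day 4 arrays. They were chosen after their values were seen, and none passed without Day 5 replicate 2 (adjusted p = 0.116, 0.0726 and 0.111).

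Few muscle genes were called between the days, which with 3 arrays a day does not show that the others were unchanged. Among the myotube markers, Day 4 means ran from 359 (Cav3) to 11889 (Acta1). Of 14 markers of myotubes 13 were measured; 13 were thus at a mean of at least 100 on either day, and Des, which encodes the intermediate filament desmin, was the only one called. Des (Entrez ID 13346) had 2719, 2738 and 2874 on Day 4 and 2263, 1866 and 2195 on Day 5, a log2 fold change of -0.40 (SE 0.09, adjusted p = 0.0126, and 0.0953 without Day 5 replicate 2). Every Day 5 array lay below every Day 4 array. Myog (Entrez ID 17928), myogenin, had 10277, 9852 and 10020 against 9609, 8917 and 9581, which also did not overlap, but at a log2 fold change of -0.10 it did not pass (adjusted p = 0.68). Acta1, skeletal actin, had 11918, 12001 and 11747 against 13520, 11980 and 11861, with overlapping arrays. Embryonic myosin Myh3, with 10710, 11021 and 11744 against 12814, 11062 and 9872, overlapped as well. Ckm, muscle creatine kinase, had 940, 663 and 1067 against 626, 432 and 623, a log2 fold change of -0.66 whose SE of 0.25 left it uncalled (adjusted p = 0.146). The fusion proteins Mymk and Mymx gave -0.20 and -0.06, and Actc1, Myh8, Tnnt1, Tnnt3, Chrna1 and Cav3 gave log2 fold changes between -0.58 (Cav3) and 0.08 (Myh8), none of them called. Of the 13 markers, 9 were lower and 4 higher on Day 5. For 3 of them all Day 5 arrays lay below all Day 4 arrays, against 10.1% of all genes, and 2.1% of all genes were called lower.

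Of 35 measured genes of the sarcomere, 24 were lower and 11 higher on Day 5, against 4010 lower and 3079 higher of all genes, and again only Des was called. Myh7, slow myosin, had 1333, 1083 and 1512 against 2863, 1825 and 1664; these did not overlap, but the log2 fold change of 0.66 did not pass (adjusted p = 0.235). Of 21 genes for calcium handling or for the neuromuscular junction, 18 were lower on Day 5 (median -0.15) and 2 fell, where 2.1% of all genes fell. Rapsn, which clusters acetylcholine receptors, had 515, 446 and 459 against 369, 303 and 375 (log2 fold change -0.44, SE 0.09, adjusted p = 0.0122, and 0.0917 without Day 5 replicate 2), with the days apart. Chrnb1, a subunit of that receptor, had 1429, 1618 and 1911 against 1363, 1109 and 1269 (log2 fold change -0.40, SE 0.11, adjusted p = 0.0399, and 0.232 without Day 5 replicate 2). Casq1, calsequestrin of fast fibres, was higher on every Day 5 array but uncalled (0.89, adjusted p = 0.0812). None of 13 measured myogenic regulators was called. Eya4, Eya1 and Six4 were higher on every Day 5 array, by 0.50, 0.54 and 0.32 on the log2 scale (adjusted p = 0.102, 0.161 and 0.201). Myod1 had 1195, 1013 and 1196 against 1074, 969 and 1151, Mef2c 1787, 1763 and 2184 against 2361, 1657 and 1577, and Srf 352, 319 and 344 against 269, 275 and 411, with overlap in each. Tcf3, which encodes the E proteins E12 and E47, was lower on every Day 5 array (317, 362 and 327 against 260, 309 and 265), by -0.27 on the log2 scale, and was uncalled (adjusted p = 0.132). Of 17 genes of fusion and adhesion, Cdh15 fell while Cdh11, a cadherin of mesenchymal cells, rose by 1.10 (adjusted p = 0.0449, and 0.284 without Day 5 replicate 2) with overlapping arrays.

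Genes of cell division were lower on Day 5 in direction, with few calls. All 16 measured genes of mitosis had negative log2 fold changes, with a median of -0.63, and none was called. Of all 7089 genes, 4010 were lower on Day 5 and 2.1% were called lower. Cdk1, the kinase that drives entry into mitosis, had 336, 550 and 388 on Day 4 and 251, 210 and 374 on Day 5, where Day 5 replicate 3 lay above Day 4 replicate 1. Its log2 fold change of -0.62 had an adjusted p of 0.119, and one of 0.0247 without Day 5 replicate 3. The checkpoint gene Mad2l1 gave -0.63 (adjusted p = 0.0858, and 0.0232 without that array). Without Day 5 replicate 3, 7 of the 16 were called lower, and without Day 4 replicate 1, 11 of 17. Calls over all probe sets grew too in these fits, with 387 of 12261 and 349 of 12114 lower, against 235 of 12098 with all arrays. The median of the list was lowest on Day 5 replicate 2 (-0.90 relative to the 6 arrays) and then on Day 4 replicate 1 (-0.47), while Day 5 replicate 3 was at 0.08. Of 20 measured genes of DNA replication 19 were lower and 2 fell, Rrm2, a subunit of ribonucleotide reductase (-0.47, adjusted p = 0.0401), and Rfc5, of the clamp loader (-0.98, adjusted p = 0.0357); neither passed without Day 5 replicate 2 (adjusted p = 0.193 and 0.238). Rfc5, with means of 106 on Day 4 and 53.9 on Day 5, reached the level of 100 needed for the test through Day 4 alone. Outside these lists Pclaf (-1.27), Cdk6 (-0.73), Cks1b (-0.58), Rfc2 (-0.57) and Cdc25b (-0.53) fell, chosen after their values were seen, and none of the 5 passed without Day 4 replicate 2 (adjusted p between 0.0916 and 0.153). In RNA of a whole dish, fewer dividing cells and less RNA of these genes per cell cannot be told apart, and the same holds for the matrix and muscle genes.

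Few genes of energy metabolism were called. Eno3 (Entrez ID 13808), the muscle form of the glycolytic enzyme enolase, had 5125, 5055 and 5657 on Day 4 and 3864, 3176 and 3977 on Day 5, and all Day 5 arrays were below all Day 4 arrays. Its log2 fold change of -0.53 (SE 0.08, adjusted p = 0.00137) held without each array, and it was the only one called of 17 glycolytic genes. Pdk4, which inhibits pyruvate dehydrogenase and was the only call among 20 atrophy genes and FOXO targets, had 205, 99 and 77.5 against 248, 402 and 231 and rose by 1.29 (SE 0.27, adjusted p = 0.0129, and 0.0985 without Day 5 replicate 2). Of 44 measured genes of oxidative phosphorylation, 40 were lower on Day 5 (median -0.13), against 4010 of all 7089 genes, and none was called. Uqcrfs1, with 1899, 1862 and 1980 against 1610, 1449 and 1816, is among the 3 members whose arrays lay apart downwards, against 10.1% of all genes. Day 5 replicate 3 had a median for this list of 0.23 relative to the 6 arrays, as high as Day 4 replicate 1. In the synthesis of cholesterol, Fdps, farnesyl diphosphate synthase, had 1008, 1021 and 956 against 614, 631 and 701, a clear separation, and fell by 0.62 (SE 0.13, adjusted p = 0.0142, and 0.0726 without Day 5 replicate 2). It was the only one called of 22 genes of cholesterol and fatty acid synthesis. Fdft1 and Srebf2, the next enzyme and the regulator of the pathway, were lower on every Day 5 array at -0.46 and -0.42 (adjusted p = 0.0531 and 0.0701).

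Other lists held few calls. Among 31 genes of the TCA cycle and fatty acid oxidation Pdk4, given above, rose and Acads fell (-0.42, adjusted p = 0.0367), among 29 genes of the ATF4 response Psph, of serine synthesis (-0.45, adjusted p = 0.0478) and among 28 lysosomal genes the channel gene Mcoln1 (-0.34, adjusted p = 0.0369), while among 16 heat shock proteins Dnajb1 rose by 0.35 (adjusted p = 0.0183). The calls of Acads, Psph, Mcoln1 and Dnajb1 were lost without Day 4 replicate 3 (adjusted p = 0.0743, 0.197, 0.1 and 0.122). Acads, with a Day 5 mean of 93.8, reached the level of 100 needed for the test through Day 4 alone. None was called among 30 proteasome subunits, of which 27 were lower (Psmd8 at -0.31, adjusted p = 0.0963), among 29 cytosolic ribosomal proteins, 22 chaperones of the endoplasmic reticulum, 16 targets of NRF2, 14 hypoxia-inducible genes, 8 interferon-response genes (Xaf1 at -0.81, adjusted p = 0.0933) and 6 CDK inhibitors and pocket proteins. All 8 measured circadian clock genes were higher on Day 5 by a median of 0.28, with Dbp at 0.41 on non-overlapping arrays, and none was called (adjusted p = 0.142 for Dbp). Over all 7089 genes, 4010 were lower and 3079 higher on Day 5.

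Markers of other cell types moved with the matrix genes in part. Of 11 fibroblast markers 4 were measured, and Islr, a secreted protein of mesenchymal cells, had 1299, 421 and 649 on Day 4 and 1666, 2841 and 1611 on Day 5, a rise of 1.48 on the log2 scale (SE 0.33, adjusted p = 0.0183, and 0.124 without Day 5 replicate 2). Pdgfra did not pass (0.78, adjusted p = 0.205, and 0.049 without Day 5 replicate 3), nor did Pdgfrb (0.68, adjusted p = 0.21) and Cd34, which was lower on Day 5 (-0.13, adjusted p = 0.729). Summed over the 10 fibroblast markers on the array, the intensity lay between 2234 and 4426 on the Day 4 arrays and between 3869 and 7519 on the Day 5 arrays, and 5 of them, Thy1, Dpt, Tcf21, Mfap4 and Pi16, stayed under 20 on all 6 arrays. For adipocyte markers the sums were 288 to 438 and 373 to 482, with Adipoq, Fabp4, Cidec, Lep and Retn under 20. Cebpa, which those cells share with other types, rose by 1.34 (adjusted p = 0.0445, and 0.257 without Day 5 replicate 2) with overlapping arrays. Its Day 4 mean was 66.5, so it reached the level of 100 needed for the test through Day 5 alone. Of 11 markers of osteoblasts and chondrocytes on the array 10 stayed under 20, Sox9 being the exception. Of 12 markers of cardiac muscle 10 stayed under 20, and the sums were 427 to 645 and 221 to 474. The sums of smooth muscle markers were 9225 to 12006 and 10792 to 11189, with Myh11, Cnn1, Lmod1 and Myocd under 20 and Tagln uncalled at 1.23 (adjusted p = 0.166). Markers of myoblasts and reserve cells summed to 2979 to 3465 on Day 4 and 3647 to 4143 on Day 5, without overlap. None of the 7 measured was called, and Pax7, Calcr, Chrdl2 and Heyl were under 20. The largest parts of the sum were Myf5, with means of 967 and 1189, and Vcam1, with 1057 and 1118. Of the 7 measured, 5 were higher on Day 5 and 2 lower, Cd34 and Cxcr4 (-0.20, adjusted p = 0.667). Spry1, of that list, was higher on every Day 5 array (0.98, adjusted p = 0.0848). The part of these cells in the results was not tested.

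Over the whole time course the risen and the fallen genes had different histories. Omd had a mean intensity of 5.14 ± 0.113 (SD, n = 3) at 6 hours and of 24.6 ± 14.6 on Day 2. It then climbed to 165 ± 67.3 (Day 3), 437 ± 407 (Day 4) and 2144 ± 766 (Day 5). Npr3 climbed likewise, from 65 ± 56 on Day 2 to 218 ± 64.9 on Day 3. Postn was level before its rise, with 297 ± 41 on Day 2, 290 ± 25.9 on Day 3 and 260 ± 143 on Day 4. Id2 was highest of all at 6 hours (957 ± 111), was at 119 ± 53.9 on Day 2 and reached 657 ± 87.9 on Day 5, near its level before induction (586 ± 60.9 on Day -1). Cdh15 was between 1992 and 2756 until Day 3, 1352 ± 375 on Day 4 and 532 ± 155 on Day 5. Klf2 declined from 1194 ± 87.7 on Day 1 to 335 ± 61.1 on Day 4 and 184 ± 58.4 on Day 5, and Timp1 from 2721 ± 144 to 1287 ± 104 and 760 ± 181. The interval from Day 2 to Day 3 shares no array with that from Day 4 to Day 5. In it, 90 of the 112 risen genes (80.4%) and 55 of the 149 fallen genes (36.9%) were higher on the later day, against 59.2% of all genes, with median log2 fold changes of 0.34, -0.08 and 0.04.

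**Figure D5:**
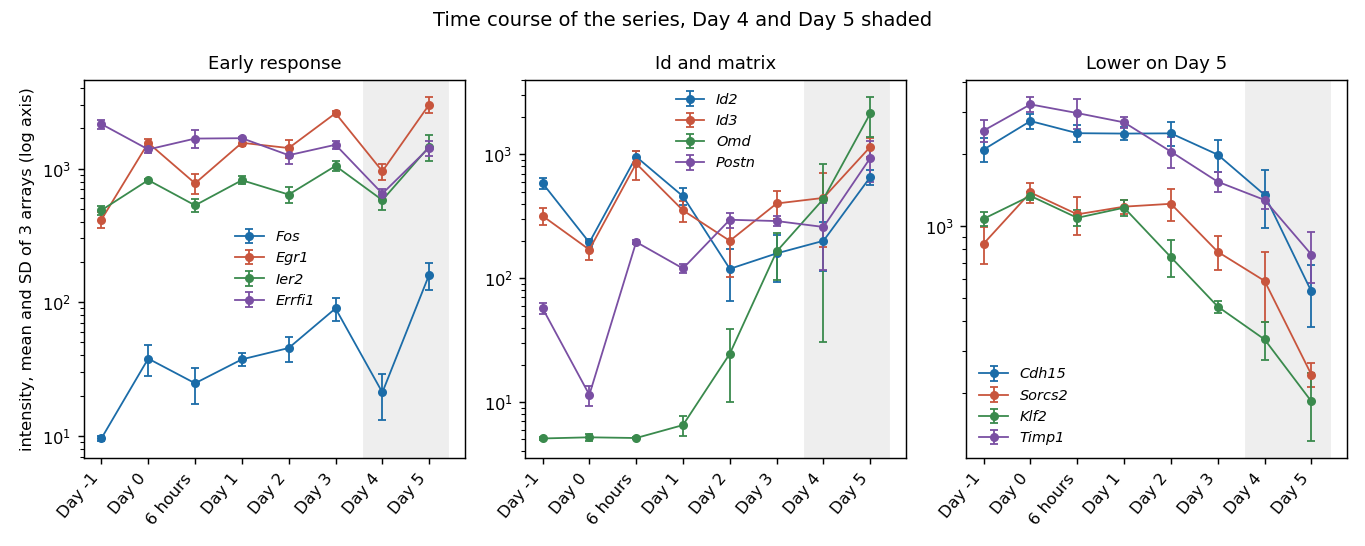
Mean intensity with SD of the 3 arrays at each of the 8 time points, on log axes, for 4 genes of early response, 4 Id and matrix genes and 4 genes that fell; Day 4 and Day 5 are shaded. Fos and Egr1 dip on Day 4, at 21.1 and 955, between higher values on Day 3 and Day 5, whereas Omd climbs and Klf2 declines from Day 2 on.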

How the data were processed

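The deposited table gives linear intensity values per probe set and array. According to the methods, the authors derived them by GC-RMA, returned them to the linear scale and scaled every array; the submitters' processing notes also name MAS5, with no role given. Means, SDs, non-overlap and log2 fold changes were computed from these intensities, and the days were tested in limma (version 3.58.1, R version 4.3.3) on log2 values, with 6 arrays and with all 24, at a Benjamini-Hochberg adjusted p under 0.05. Probe sets were named by the annotation of the array, with symbols updated through RefSeq; of 12098 tested, 11212 had 1 gene, 393 several and 493 none. For each gene the brightest probe set, by mean log2 intensity over the 6 arrays, was used.

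Genes were named by rule: the 10 largest rises and falls among called genes with non-overlapping arrays, up to 4 members of each of 34 gene lists, myotube markers and the factors of the study. E2f1 and Foxm1 had no probe set at the level required. Further called members were named after their values were seen. Members and lists were chosen with earlier results of these data known.

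The analysis was tested on simulated data. The noise was independent and normal, with an SD for each probe set that was equal on all days and no effect of single arrays. The simulation therefore cannot bear on the larger spread of Day 5 or on the likeness of Day 4 replicate 1 and Day 5 replicate 3. Alternatives were other level filters, quantile normalization, a floor, a trended prior, linear values, array weights, other sets of arrays, a replicate block and leaving out each array.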

Additional observations from a re-analysis of the deposited data

How the results depend on the processing

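The number of calls was the result that depended most on the processing. With 6 arrays, the count of 0 became 1 with an intensity trend in the prior, 10 with array weights, 32 with the 12 arrays of Day 2 to Day 5 and 425 with all 24 arrays, and lay between 0 and 24 without single arrays (24 without Day 4 replicate 1). With 24 arrays, the count of 425 became 979 with array weights, where the fit stopped before it reached its convergence tolerance, 32 with 12 arrays and 0 with 6, and lay between 90 and 856 without single arrays. On linear values it was 403, of which 266 were higher and 137 lower. The 1806 probe sets without overlap became 3296 without the level filter, and between 2194 and 5493 without single arrays; after quantile normalization they were 1868, split into 871 higher and 997 lower. Quantile normalization moved the median of all probe sets by 0.012 on the log2 scale.

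With the replicate block, 0 probe sets were called with 6 arrays (lowest adjusted p 0.13) and 378 with 24 arrays, 362 of them among the 425. Of the 84 named genes that passed, 7 did not pass with the block, among them Ier3 at an adjusted p of 0.0511. The numbers were not taken to pair the arrays, since the deviations of same-numbered Day 4 and Day 5 arrays had an r of -0.41, 0.30 and 0.42.

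None of these 84 genes changed direction in the alternatives in which it was tested, which is largely built in, since they were called on the same arrays. Single genes were not followed on linear values, with the intensity trend or with 12 arrays, and 65 of the 84 were tested at a level of at least 200. Some named genes that had not passed changed direction. The log2 fold change was 0.10 for Lum with array weights and 0.0022 without Day 4 replicate 2, and for Actc1 -0.0064 and -0.017 in the same settings. For Mymx it was 0.0070, 0.030 and 0.024 without Day 4 replicate 1, Day 4 replicate 3 and Day 5 replicate 2. For Myh3 it was -0.025, -0.0038 and -0.094 without Day 4 replicate 1, Day 4 replicate 2 and Day 5 replicate 1, and for Myh8 -0.056 and -0.18 without Day 4 replicate 1 and Day 5 replicate 1. Chrna1 was at 0.022 without Day 5 replicate 2, and Mef2c at 0.047, 0.020 and 0.056 without Day 4 replicate 3, Day 5 replicate 2 and Day 5 replicate 3. Without single arrays the other ends of the ranges were -0.51 for Lum, 0.15 for Actc1, -0.21 for Mymx, 0.095 for Myh3, 0.27 for Myh8, -0.12 for Chrna1 and -0.24 for Mef2c. The cause of these differences was not tested. With 3 arrays a day, of which Day 4 replicate 1 and Day 5 replicate 3 were the most alike, the number of arrays limits the precision of every value.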
